A study of Mus musculus with 6 samples.

Results

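The genes of the DNA replication machinery and of deoxynucleotide synthesis were followed in bone marrow (BM) erythroblasts of mice recovering from anemia. The 31 genes were chosen by name: the 6 subunits of the MCM helicase core, 6 genes that load or activate the helicase, the sliding clamp and its loader, the replicative DNA polymerases, the enzymes that join Okazaki fragments, and the enzymes that make deoxynucleotides. All 31 were found, on 37 probes, among the 34761 gene names of the array, and all 31 were among the 14139 genes tested. RNA came from CD71highTer119+ erythroblasts of 3 P38α+/- and 3 P38α-/- mice, sorted on day 4 of recovery. Anemia had been induced by 1 injection of phenylhydrazine (PHZ), given at 100 mg per kg to destroy red cells. Both genotypes were C57Bl/6 mice of either sex, and both carried Mx1-Cre, with 1 floxed P38α allele (Mx1-Cre/P38α fl/+) or with both (Mx1-Cre/P38α fl/fl). At 6 to 8 weeks of age both had received 3 injections of PolyIC (300 µg each) to induce the deletion, and 6 weeks of rest followed before PHZ, so the sampled mice were older than that. The Mx1 promoter responds to interferon and is not specific for erythroid cells, and the controls had themselves lost 1 P38α allele. The comparison asks how the levels of these S phase genes in the erythroblasts differ between the genotypes.

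DNA replication starts where the origin recognition complex, Cdc6 and Cdt1 load the ring of Mcm2 to Mcm7 onto DNA. Mcm10 and the GINS complex then turn the ring into an active helicase. Polymerase alpha with its primase lays down primers, the clamp loader (replication factor C) places the Pcna clamp, and polymerases delta and epsilon extend the new strands. Fen1 and Lig1 finish the pieces of the lagging strand, while ribonucleotide reductase (Rrm1 and Rrm2) and thymidylate synthase (Tyms) supply the nucleotides. Erythroblasts divide several times while they fill with hemoglobin, and S phase is closely tied to their differentiation.

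Each RNA sample was read on 1 Agilent array. The arrays are called hetero (P38α+/-) and ko-labelled (labelled P38α-/-) below. A level is the log2 signal after subtraction of the array's 75th percentile, and a log2 fold change is the mean level of the ko-labelled arrays minus that of the hetero arrays. A probe was called changed if limma's adjusted p was at most 0.05 and the fold at least 2. Of the non-control probes, 28.9% to 53.0% were well above background per array, and no spot was saturated. Mapk14, the gene of P38α, was not lower in the ko-labelled arrays: its brighter probe, at chr17:28885290-28885349 of mm9, had levels of 0.32, 0.58 and 0.60 in hetero and 0.75, 1.19 and 1.20 in the others. Its second probe, at chr17:28873965-28874024, had a log2 fold change of 0.012. Which exons were floxed is not given in the sources used here, so these probes are no check of the genotype. The paper reports excision of the gene and loss of P38α protein in sorted erythroblasts after PolyIC. It does not tie that check to these 6 samples. Directions below therefore follow the labels. The sort marker Tfrc (CD71) and the shared erythroid genes Klf1, Gata1, Epor, Nfe2 and Tal1 were well above background on all 6 arrays, with a median log2 fold change of 0.029, and 10 late erythroid genes had a median of 0.015. Early erythroid genes (Kit, Myb, Cd34 and Myc tested, Gata2 not) had a median log2 fold change of -1.35, with mean levels of -4.46 to -3.20 in hetero and -5.56 to -4.28 in the others. Myc of this list went the other way, at 0.055 with overlapping genotypes, and was well above background on all 6 arrays. Myb, also well above background on all 6, stood at -1.08 (limma, adjusted p = 0.267). Its genotypes overlapped as well, and it was lower in all 3 pairs. With the replicate number as a block, Kit (log2 fold change -1.62) and Cd34 (-1.87) passed the threshold, each with an adjusted p of 0.048 from limma, and both were lower in all 3 pairs. Kit was well above background on 5 of the 6 arrays and Cd34 on 4. The mean level of 9 neutrophil genes was 2.17 to 3.94 in the hetero arrays and 1.16 to 1.82 in the ko-labelled arrays, and all 9 had negative log2 fold changes, from -2.06 to -1.05, of which none passed the adjusted threshold and 8 had an unadjusted p of at most 0.05. Most other lists lay on the same side. Of all 14139 tested genes 9264 were negative as well, and 20.1% had an unadjusted limma p of at most 0.05. Negative log2 fold changes were found for 7 of 7 tested monocyte or macrophage genes (median -0.91). Of these 7, Csf1r alone had an unadjusted limma p of at most 0.05 and no overlap between genotypes. For B cells 3 of 3 tested of 8 listed genes were negative (median -2.64). For T or NK cells, 2 of 2 tested of 6 listed genes were negative (median -0.99). The megakaryocyte or platelet list did not lie there: 2 of its 3 tested genes, of 6 listed, were positive (median 0.22). Ebf1 of the B cell list (-3.88) passed with the block (limma, adjusted p = 0.048), and was well above background on 3 of the 6 arrays. A probe was tested if all arrays of 1 genotype read it well above background, so dim genes could enter through the higher genotype alone. The sizes and counts of these lists were partly set by that filter. The calls of Kit, Cd34 and Ebf1 with the block rested on that filter too, so their adjusted p values are no separate support. With that block 63 genes (0.446%) passed over the whole array, 15 of them higher. The part of these other cells and of erythroid stage in the levels of the replication genes was not tested, and in sorted bulk RNA fewer cells of a type and less RNA per cell cannot be told apart.

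Promoters were examined for what the 31 genes share beyond their names. E2F factors are the main transcription factors of genes needed in S phase, and 4 forms of their site were searched on both strands: TTTCCCGC, TTTCGCGC, TTTGCCGC and TTTGGCGC. RefSeq promoters (GRCm38.p6, 250 bases before to 50 after the start) were held for 25 of the 31 genes, and 12 of the 25 (48%) had at least 1 match. Of all genes with a promoter there, 704 of 27025 (2.605%) had one, and among the genes tested on the array 5.05% did. The 12 genes were Mcm3, Mcm5, Mcm6, Mcm7, Cdc6, Cdt1, Gins3, Rfc3, Pola1, Pold1, Pole2 and Lig1. The CCAAT box, searched on both strands, was in 15 of the 25 (60%) against 41.1% of all genes. The 170 bases before the start are shown for a helicase subunit with 3 matches and one with 2, for the helicase loader Cdc6, for the GINS subunit Gins3 and for the catalytic subunit of polymerase alpha, each read 5′ to 3′ along the gene with the E2F matches in capitals. In Mcm5, and at the first site of Mcm6, a match on each strand overlaps the other, so that the capitals run together.
Mcm5, GRCm38.p6, chr8:75109339-75109508, forward strand: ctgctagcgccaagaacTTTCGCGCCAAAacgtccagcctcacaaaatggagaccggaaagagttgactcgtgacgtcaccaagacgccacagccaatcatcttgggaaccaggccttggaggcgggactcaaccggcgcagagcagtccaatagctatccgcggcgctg
Mcm6, GRCm38.p6, chr1:128359706-128359875, reverse strand: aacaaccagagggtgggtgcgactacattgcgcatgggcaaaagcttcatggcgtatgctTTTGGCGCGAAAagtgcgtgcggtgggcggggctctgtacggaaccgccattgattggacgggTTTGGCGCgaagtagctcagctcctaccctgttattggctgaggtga
Cdc6, GRCm38.p6, chr11:98907981-98908150, forward strand: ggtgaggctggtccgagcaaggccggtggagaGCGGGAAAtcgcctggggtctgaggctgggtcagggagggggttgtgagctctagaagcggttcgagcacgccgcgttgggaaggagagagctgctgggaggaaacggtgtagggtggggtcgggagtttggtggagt
Gins3, GRCm38.p6, chr8:95633389-95633558, forward strand: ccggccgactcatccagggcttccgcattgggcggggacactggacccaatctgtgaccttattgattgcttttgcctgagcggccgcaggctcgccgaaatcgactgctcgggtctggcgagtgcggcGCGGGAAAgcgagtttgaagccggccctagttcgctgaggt
Pola1, GRCm38.p6, chrX:93632156-93632325, reverse strand: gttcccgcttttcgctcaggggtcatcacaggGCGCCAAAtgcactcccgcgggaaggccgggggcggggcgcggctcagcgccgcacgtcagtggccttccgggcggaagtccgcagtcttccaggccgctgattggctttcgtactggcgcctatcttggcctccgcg
A match is a description of the letters and shows no binding. The 12 genes with a match had log2 fold changes from -0.21 to 0.21 (median 0.043), and the 13 without one from -0.25 to 0.24 (median -0.0050), so the ranges of both sets lay over each other.

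None of the 31 replication genes passed the threshold, against 27 genes (0.191%) over the whole array (limma, Benjamini-Hochberg adjustment over all tested probes). Of those 27 genes 21 were higher in the ko-labelled arrays. That split moved with the scaling, to 409 of 737 with the percentile taken over all probes, 14 of 15 after quantile normalization and 2 of 7 with centring on the E1A spike-in spots. All 31 were well above background on all 6 arrays by the probe that stands for them, the brightest tested one. Their log2 fold changes lay between -0.28 (Pole) and 0.24 (Pola2), with a median of 0.015, and 17 were positive and 14 negative. The lowest adjusted p was 0.299, for Pole. No replication gene had an unadjusted p of at most 0.05, while 20.1% of all genes did. Of the 11979 genes well above background on all 6 arrays, 2039 had such a p. The mean level of the 31 genes lay 2.87 to 3.32 above that of all tested genes, by array. The 95% intervals of all 31 held 0. All 31 also lay inside a 2-fold difference in either direction, as did 69.7% of the genes well above background on all 6 arrays, and the intervals of 23 lay inside 1.5-fold, as did 26.4% of those genes. The intervals reached furthest down for Pola1, to a fold of 0.631, and furthest up for Pola2, to a fold of 1.68. These bounds hold for this scaling and do not show that the genotypes are equal. With the percentile taken over all probes, 2 of the 31 intervals lay inside 2-fold, and the fold changes of 28 genes lay outside the intervals given here. With centring on the E1A spike-in spots, none of the 31 intervals lay inside 2-fold, and they reached from -1.82 to 2.12 on the log2 scale. After quantile normalization, and in the authors' normalized table, 29 did.

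**Figure D1:**
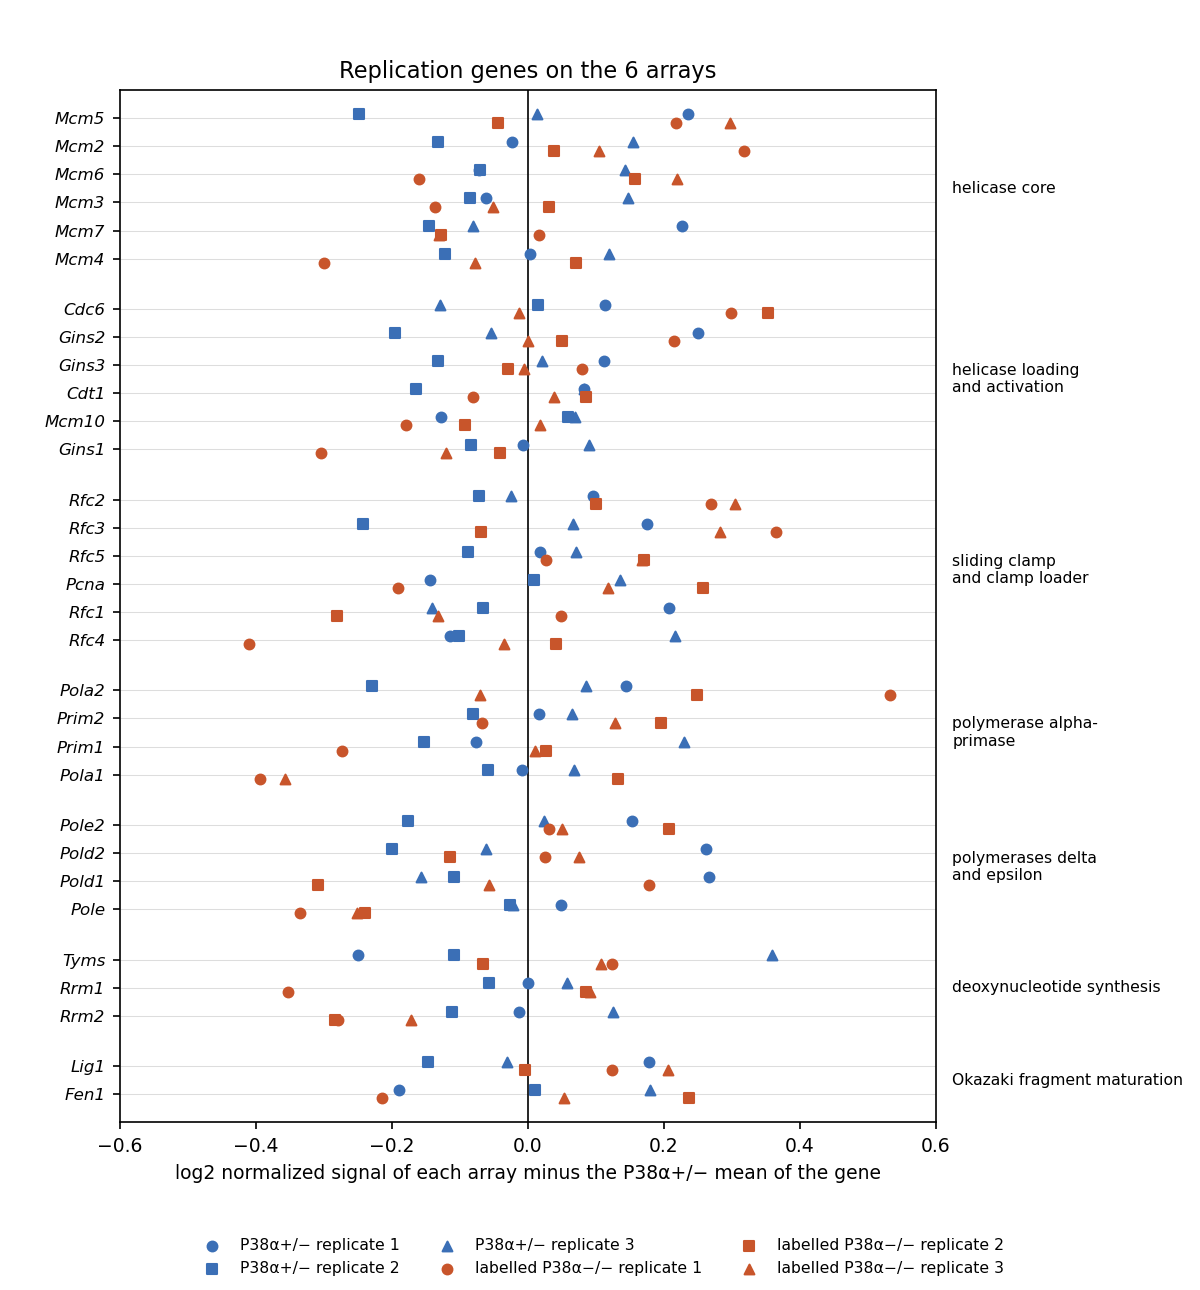
Levels of the 31 replication genes on the 6 arrays, by the role of the gene. Each point is the level of 1 array (log2, x axis) minus the mean of the 3 hetero arrays of that gene, with P38α+/- in blue, the ko-labelled arrays in orange and the replicate number as the shape. The colours mix in 28 of the 31 rows, and they separate for Rfc2, Pole and Rrm2.

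**Figure D2:**
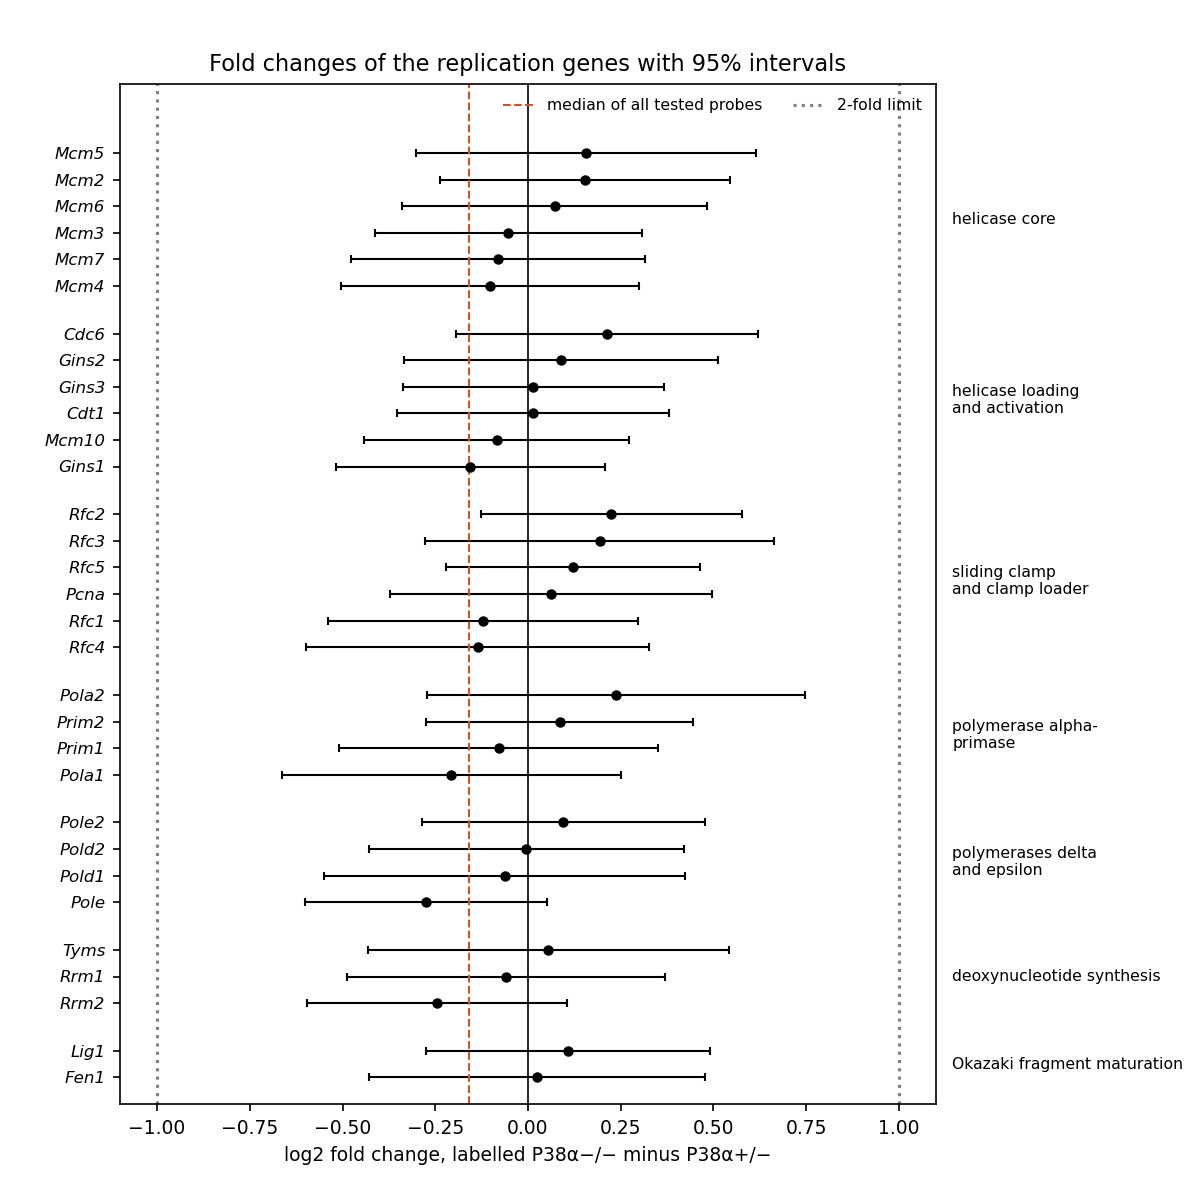
Log2 fold changes of the 31 replication genes (points) with 95% intervals (bars), from limma. Every bar crosses 0 and none reaches the dotted lines at a 2-fold difference, and the dashed line marks the median of all tested probes at -0.16.

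The helicase core, whose 6 subunits form the ring that unwinds DNA, had log2 fold changes from -0.10 (Mcm4) to 0.16 (Mcm5), 3 positive and 3 negative. Mcm5, read at chr8:77651350-77651410 of mm9, had levels of 3.03, 2.55 and 2.81 in hetero and 3.02, 2.75 and 3.09 in the ko-labelled arrays. The lowest array was hetero replicate 2, and otherwise the genotypes overlapped. For Mcm5 the log2 fold change was 0.16 (SE 0.19, 95% interval -0.30 to 0.62, adjusted p = 0.683). Mcm2, at chr6:88833619-88833678, read 1.15, 1.04 and 1.33 in hetero and 1.49, 1.21 and 1.28 in the others. The highest Mcm2 value was replicate 1 of the ko-labelled arrays, and the other 2 of that label fell among the hetero values. Its log2 fold change was 0.15 (SE 0.16, 95% interval -0.24 to 0.54, adjusted p = 0.631). Mcm6, Mcm3 and Mcm7 stood at 0.072, -0.053 and -0.081, and the second probe of Mcm3 at -0.08.

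Among the genes that load and activate the helicase, Cdc6 had the highest log2 fold change and Gins1 the lowest. Cdc6, which brings the helicase to origins, was read by 2 probes of opposite sign. The brighter one, at chr11:98785169-98785228, read -1.25, -1.35 and -1.49 in hetero and -1.07, -1.01 and -1.38 in the ko-labelled arrays, and all 3 same-numbered pairs were higher in the latter. Its log2 fold change was 0.21 (SE 0.17, 95% interval -0.19 to 0.62, adjusted p = 0.511). The dimmer Cdc6 probe, at chr11:98782986-98783045, read -2.05, -2.65 and -2.31 in hetero and -2.62, -2.48 and -2.50 in the others, a log2 fold change of -0.20. The direction of Cdc6 was therefore not settled between its own probes. Gins1, a subunit of the GINS complex that joins the helicase, read 0.56, 0.48 and 0.66 in hetero and 0.26, 0.52 and 0.45 in the ko-labelled arrays at chr2:150756868-150756927. Replicate 1 of that label was the lowest array, and replicate 2 lay within the hetero values. Gins1 thus had a log2 fold change of -0.16 (SE 0.15, 95% interval -0.52 to 0.21, adjusted p = 0.600). Its GINS partners Gins2 and Gins3 stood at 0.088 and 0.015, the loading factor Cdt1 at 0.014 and Mcm10 at -0.085.

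Pcna, the clamp that holds the polymerases on DNA, read 3.28, 3.43 and 3.56 in hetero and 3.23, 3.68 and 3.54 in the ko-labelled arrays at chr2:132075022-132075054. Replicate 1 was the lowest array in each genotype, and the levels overlapped throughout. Its log2 fold change was 0.061 (SE 0.18, 95% interval -0.37 to 0.50, adjusted p = 0.879), and it turned slightly negative (-0.010 and -0.037) without hetero replicate 1 or without replicate 2 of the ko-labelled arrays. Subunits of the clamp loader had both signs. Rfc2, a small subunit, read 1.64, 1.47 and 1.52 in hetero (1.54 ± 0.087, SD, n = 3) and 1.81, 1.64 and 1.84 (1.76 ± 0.11) in the ko-labelled arrays at chr5:135073809-135073868. All 3 arrays of that label lay above all hetero arrays, though the nearest values differed by less than either SD. Its log2 fold change was 0.22 (SE 0.15, 95% interval -0.13 to 0.58, adjusted p = 0.422). Rfc3, another small subunit, read -2.15, -2.56 and -2.25 in hetero and -1.96, -2.39 and -2.04 in the ko-labelled arrays at chr5:152448247-152450045. It was higher in each same-numbered pair, by 0.19, 0.17 and 0.22, while the genotypes overlapped and the pairs stood at different heights. For Rfc3 the log2 fold change was 0.19 (SE 0.20, 95% interval -0.28 to 0.66, adjusted p = 0.616). With the replicate number as a block in limma, its adjusted p was 0.334. Rfc5 was at 0.12. The large subunit Rfc1, at chr5:65653207-65653266, read 0.66, 0.38 and 0.31 in hetero and 0.50, 0.17 and 0.32 in the others. Replicate 1 was the highest array of each genotype. This gave Rfc1 a log2 fold change of -0.12 (SE 0.17, 95% interval -0.54 to 0.30, adjusted p = 0.734). Rfc4 was read by 2 probes. The brighter one, at chr16:23114024-23114083, read 2.02, 2.03 and 2.35 in hetero and 1.72, 2.17 and 2.10 in the others, overlapping, with a log2 fold change of -0.14 (SE 0.19, 95% interval -0.60 to 0.33, adjusted p = 0.733), which was 0.0027 without replicate 1 of the ko-labelled arrays. The dimmer one, at chr16:23120982-23121041, read 1.01, 1.05 and 1.32 in hetero and 0.58, 0.91 and 0.99 in the others, all 3 lower, with a log2 fold change of -0.30 (SE 0.18, 95% interval -0.74 to 0.14, adjusted p = 0.393).

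Polymerase alpha with primase, which starts each new strand, held the highest and 1 of the lowest fold changes. Pola2, its regulatory subunit, read -3.15, -3.52 and -3.21 in hetero and -2.76, -3.04 and -3.36 in the ko-labelled arrays at chr19:5946484-5946543. Replicates 1 and 2 of that label were the 2 highest arrays, and replicate 3 fell among the hetero arrays. Pola2 had a fitted log2 fold change of 0.24 (SE 0.21, 95% interval -0.27 to 0.75, adjusted p = 0.562). Pola1, the catalytic subunit, read -0.39, -0.44 and -0.32 in hetero and -0.78, -0.25 and -0.74 in the others at chrX:90550189-90550248. Replicates 1 and 3 of the ko-labelled arrays were the lowest and replicate 2 the highest of all 6. The SD of Pola1 was 0.29 in that label against 0.063 in hetero, and the log2 fold change was -0.21 (SE 0.19, 95% interval -0.66 to 0.25, adjusted p = 0.575). The primase subunit Prim1 stood at -0.079. The other primase subunit, Prim2, was read at 0.085 by the brighter probe and -0.21 by the dimmer one, again of opposite sign.

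Pole, the catalytic subunit of polymerase epsilon, which copies the leading strand, had the lowest fold change of the 31. Its brightest probe, at chr5:110766375-110766434, read 0.95, 0.87 and 0.88 in the hetero arrays (0.90 ± 0.042, SD, n = 3) and 0.56, 0.66 and 0.65 in the ko-labelled arrays (0.62 ± 0.053). All 3 arrays of that label lay below all 3 hetero arrays. The log2 fold change of Pole was -0.28 (SE 0.14, 95% interval -0.60 to 0.05, adjusted p = 0.299). A second Pole probe, at chr5:110720154-110720213, read -2.91, -3.29 and -3.31 in hetero and -3.34, -3.42 and -3.53 in the others, also without overlap, with a log2 fold change of -0.26 (SE 0.17, 95% interval -0.67 to 0.16, adjusted p = 0.439). The third Pole probe was well above background on none of the arrays and was not tested. The accessory subunit Pole2 stood at 0.10, and the polymerase delta subunits Pold1 and Pold2 at -0.062 and -0.005.

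Rrm2, the regulated subunit of ribonucleotide reductase, read 4.84, 4.74 and 4.98 in the hetero arrays (4.86 ± 0.12, SD, n = 3) and 4.58, 4.57 and 4.68 in the ko-labelled arrays (4.61 ± 0.063) at chr12:25398824-25398883. The 3 values of that label were the 3 lowest. For Rrm2 the log2 fold change was -0.25 (SE 0.15, 95% interval -0.60 to 0.11, adjusted p = 0.381). The partner subunit Rrm1 stood at -0.059 and thymidylate synthase (Tyms) at 0.055. The 2 enzymes of Okazaki fragment maturation, the ligase Lig1 and the flap nuclease Fen1, stood at 0.11 and 0.025. For Rfc2, Pole and Rrm2 the exact two-sided permutation test over the 6 arrays gave p = 0.10, the smallest it can give with 3 against 3.

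Non-overlap was counted over all genes for comparison. Of the 31 replication genes 1 (3.23%), Rfc2, lay wholly higher in the ko-labelled arrays, where 7.45% of all genes did, and 2 (6.45%), Pole and Rrm2, lay wholly lower, where 19.6% of all genes did. Rfc2, Rfc3, Rfc5 and Cdc6 were higher in all 3 same-numbered pairs (12.9%, against 17.3% of all genes), and Pole, Rrm2 and Mcm10 were lower in all 3 (9.68%, against 37.3%). Among the 11979 genes well above background on all 6 arrays, 1013 lay wholly higher and 1949 wholly lower. In all 3 pairs 2389 of them were higher and 3944 lower. The pairs differed in direction. In pair 1 the array labelled P38α-/- was higher for 7 of the 31 genes (median difference -0.084), in pair 2 for 26 (0.17) and in pair 3 for 14 (-0.027). Within the hetero genotype replicate 2 was the lowest array for 22 of the 31 genes and the highest for 0. The median SD within a genotype was 0.164 over the 31 genes and 0.251 over all genes well above background on all 6 arrays. A block for the replicate number, which pairs the arrays, gave 63 genes (0.446%) past the threshold over the whole array and none of the 31, with a lowest adjusted p of 0.222 at the dimmer Rfc4 probe. With array weights, 21.3% of all genes reached an adjusted p of 0.05 or less at any fold, and again none of the 31 did. Their lowest was 0.1085, for Rfc2.

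**Figure D3:**
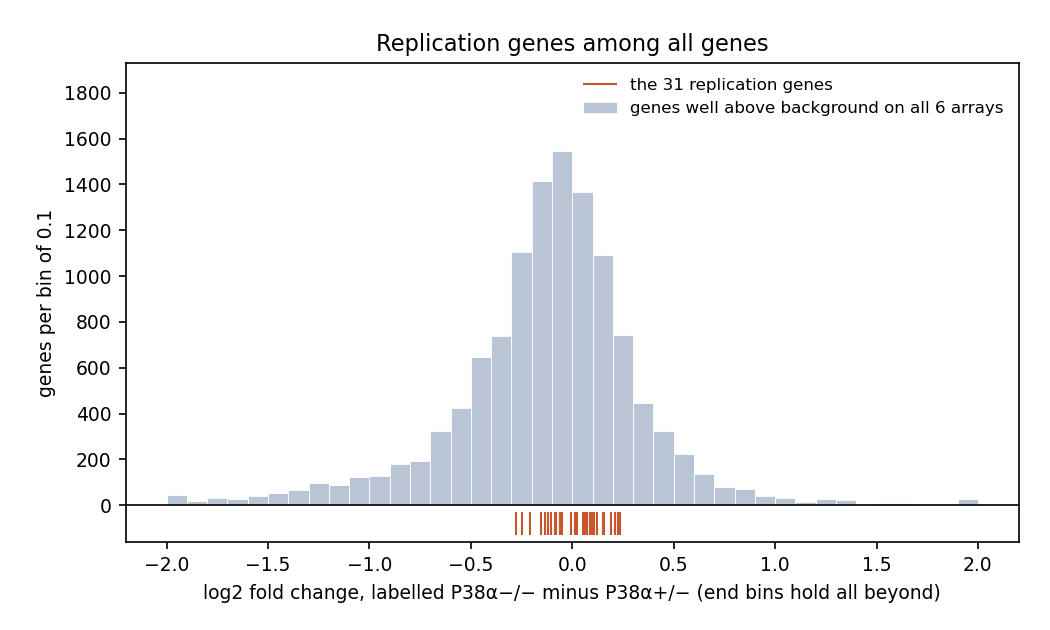
Log2 fold changes of the 11979 genes well above background on all 6 arrays (bars, genes per bin of 0.1) and of the 31 replication genes (orange ticks below the axis). The ticks lie between -0.28 and 0.24, in the central part of the bars, which extend past -1 and 1.

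The largest fold change of the 31 by size, 0.276 for Pole, was as large as or larger than that of 57.5% of the genes well above background on all 6 arrays. The median of all tested probes was -0.16, so 28 of the 31 genes stood above it, and the median replication gene stood 0.17 above it. This relation followed the scaling: the median replication gene stood 0.045 below the median probe after quantile normalization and 0.048 below it in the authors' normalized table. The median of the 31 genes itself was 0.012 and 0.014 there. With the percentile taken over all probes, where the median probe stood at 0.32, all 31 fold changes were positive (0.21 to 0.72), Pole and Rrm2 included, and 10 of the 31 genes, all higher, did not overlap between genotypes. With centring on the E1A spike-in spots none of the 31 was free of overlap, and the range was -0.11 to 0.40. The share of all genes without overlap was not counted under these other scalings. The counts without overlap are therefore no result about the 31 genes.

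**Figure D4:**
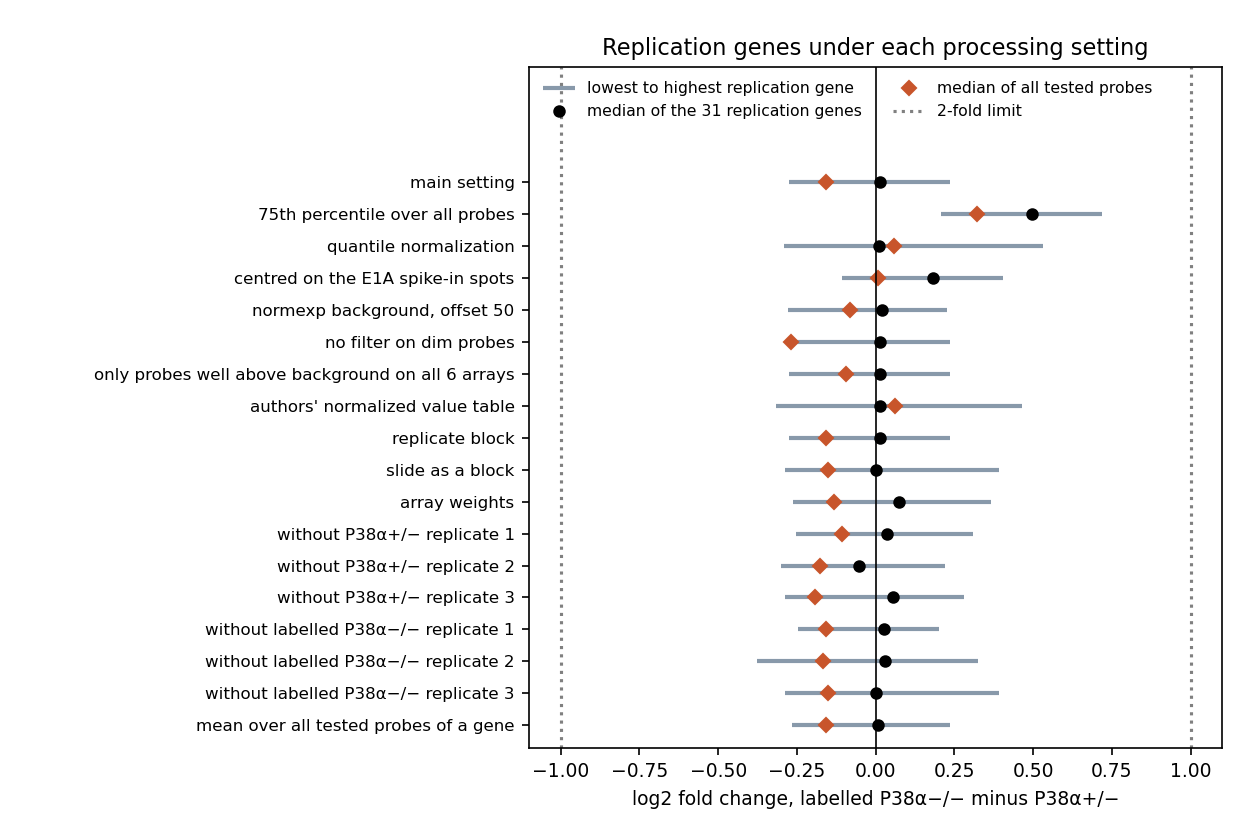
Log2 fold changes of the 31 replication genes under each processing setting. The black point is their median, the grey line runs from the lowest to the highest gene, and the orange diamond is the median of all tested probes. No line reaches a 2-fold difference, and the diamond lies to the right of the black point under quantile normalization and in the authors' table.

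The wider pathway was read from a list of 84 other genes of replication and nucleotide synthesis, of which 75 were tested. None passed the threshold, and their median log2 fold change was -0.025. With array weights in limma, a probe of Rpa1 reached an adjusted p of 0.026 at a fold under 2. In that fit 21.3% of all genes reached 0.05 or less at any fold. An unadjusted p of at most 0.05 was found for 3 of the 75, all with negative log2 fold changes: Cdc7, Ticrr and E2f8, the latter 2 named after their values were seen. Over all genes that share was 20.1%, with 2140 of 2835 lower, so the genes named next are the ends of the list and no result about it. Cdc7, the kinase that starts origin firing, was the lowest of the genes well above background on all 6 arrays. It read -2.92, -2.61 and -2.78 in hetero and -4.31, -3.44 and -3.25 in the ko-labelled arrays, with a log2 fold change of -0.90 (SE 0.30, 95% interval -1.62 to -0.18, adjusted p = 0.176). The 3 Cdc7 values of that label lay below the others, and replicate 1 stood apart at the bottom. Ticrr, which helps to assemble the active helicase, stood at -0.42 (adjusted p = 0.186), and E2f8, a repressor of the E2F family, at -0.39 (adjusted p = 0.228). Orc1, of the origin recognition complex, stood at -0.54 (adjusted p = 0.392) and the activator E2f3 at -0.45 (adjusted p = 0.258). At the other end stood Impdh2, of guanine nucleotide synthesis, at 0.57 (adjusted p = 0.438), Samhd1, which breaks down deoxynucleotides, at 0.40 (adjusted p = 0.288) and Rnaseh2c, of the enzyme that removes ribonucleotides from DNA, at 0.38 (adjusted p = 0.242). Impdh2 rested on replicate 2 of the ko-labelled arrays, at 2.75 against 1.92 and 1.17 in the other two.

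By role, the medians of the pathway list ran from -0.25 for the 10 tested regulators of S phase entry and -0.23 for the 10 other genes of helicase loading to 0.086 for the 8 tested genes of deoxynucleotide supply. Among 15 tested genes of mitosis the median was -0.11, and none passed the threshold. These medians are given beside -0.16 for all tested probes, and no role was tested as a group.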

How the data were processed

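RNA of sorted erythroblasts from 3 P38α+/- and 3 P38α-/- mice was hybridised to 1 Agilent array each. The authors deposited the intensity of every spot as Agilent Feature Extraction 10.7.3.1 wrote it, with background subtracted and no normalization between arrays (probe positions in mm9), and a table of normalized intensities whose steps are not given in the sources used here. Outlier spots were left out, spots of a probe averaged, and log2 signals centred on each array's 75th percentile, taken over those 15527 probes that every array read well above background. Probes well above background on all arrays of a genotype were tested (18764 probes) with limma 3.58.1 in R 4.3.3 (two-sided, Benjamini-Hochberg adjustment). A gene passed by any tested probe, and its brightest tested probe gave its values. Members were matched by the array's gene names; for other genes 27509 of 55681 probes were named by accession, 3549 by symbol and 404 by synonym. All members were named, with every array's value for called members, the 6 highest and 6 lowest fold changes, Pcna, Mcm2 and Rrm2. Tested on simulated data of the same size, limma called 148 of 18764 probes, 145 of them among the 200 made to differ. Every simulated difference was larger than 2-fold, and the simulated noise had no pair or slide structure. The simulation therefore says nothing about differences as small as those of the replication genes. Members, lists and tests were chosen with earlier results of these data known. The design text of the series speaks of pairs of mice, and deviations from the genotype mean correlated at 0.242 to 0.392 between same-numbered arrays and at most at 0.062 otherwise, so the numbers were taken to pair the arrays. The SEs, intervals and adjusted p values of single genes came from the fit without pairs, unless the block or array weights are named. Replicate 3 of the arrays labelled P38α-/- was alone on its slide. In the authors' table the column of replicate 2 of that label had a Spearman correlation of 0.898 with its scanner signal, against 1.00 for the others. The number of arrays limits the precision. One marker gene of the erythroid list is not reported here.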

Additional observations from a re-analysis of the deposited data

How the results depend on the processing

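None of the 31 replication genes and none of the 75 pathway genes passed the threshold under any of the alternatives run. Several alternatives passed no gene at all over the whole array, and there this outcome says nothing about these lists. The slide block gave the same fit as leaving out replicate 3 of the arrays labelled P38α-/-, which was alone on its slide. The count over all genes, 27 (21 higher), was 737 (409 higher) with the percentile over all probes, 15 (14 higher) after quantile normalization, 7 (2 higher) on the spike-in spots, 12 (all higher) with normexp, 0 without a filter on dim probes, 76 with only probes well above background on all arrays, 11 (all higher) in the authors' table, 63 (15 higher) with the replicate block, 0 with the slide as a block, 2 by the methods' unpaired test and 1685 (244 higher) with array weights. It ranged from 0 to 100 with 1 array left out, and was 0 without P38α+/- replicate 2 or any 1 array labelled P38α-/-, and 100 without P38α+/- replicate 3. The replication genes that did not overlap between genotypes numbered 3, against 10 with the percentile over all probes (all higher), 0 on the spike-in spots and 6 in the authors' table, and 4 to 7 with 1 array left out. For these alternatives the share of all genes without overlap was not counted, so the counts are no result about the replication genes. Their median log2 fold change, 0.015, was 0.50 with the percentile over all probes and 0.18 on the spike-in spots, and -0.052 to 0.055 with 1 array left out; the replicate block left it at 0.015, and on the first slide alone, without replicate 3 of the arrays labelled P38α-/-, it was 0.0020. With the percentile over all probes, which moved the median probe from -0.16 to 0.32, Gins1 (0.33), Pola1 (0.28), Pole (0.21), Rfc1 (0.36), Rfc4 (0.35) and Rrm2 (0.24) turned positive, and on the spike-in spots Gins1 (0.013), Rfc1 (0.046) and Rfc4 (0.032) did. With 1 array left out, Pcna ranged from -0.037 to 0.19 and Rfc4 from -0.22 to 0.0027. The cause of these shifts was not tested.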
